A study of Homo sapiens with 12 samples.

Results

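The mitochondrial ribosomal protein genes are the protein-coding RefSeq genes whose symbol starts with MRPL, for the large subunit, or MRPS, for the small subunit. The rule found 77 of 20052 protein-coding genes, 49 MRPL and 28 MRPS. The study mapped N4-acetylcytidine (ac4C), an acetylated cytidine in RNA that NAT10 writes, in RBE, a human intrahepatic cholangiocarcinoma cell line. The cells carried a short hairpin RNA against NAT10 (sh-NAT10) or a control hairpin (sh-NC). Fragments of RNA bound by an ac4C antibody were sequenced, as was RNA before the pull-down (input), and the 12 libraries form 4 groups of 3: sh-NAT10 IP, sh-NAT10 input, sh-NC IP and sh-NC input. The labels describe lentiviral delivery of sh-NAT10 at a multiplicity of infection of 20 with 10 µg/mL polybrene, and expansion of colonies that resisted 2 µg/mL puromycin. The same text stands on all samples and names sh-NAT10 virus only, so it does not state how sh-NC cells were made, nor how many hairpin sequences were used.

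What is described here is 1 list of peaks per arm, stretches of the genome where the authors called ac4C signal, with 28047 peaks in the sh-NAT10 list and 34365 in the sh-NC list. The lists do not separate the replicates, so the spread between samples is unknown, no p-value is given between arms, and a gene present in 1 list only is not shown to differ. Read depth is unknown as well. A site with less ac4C, a scarcer transcript and too few reads cannot be told apart, and in bulk RNA neither can fewer expressing cells and less RNA per cell. Neither list holds a peak on the mitochondrial genome. NAT10 itself carried 5 peaks in each list, which is no check of the knockdown, since a peak does not measure RNA level. Of 8 biliary and epithelial markers, 6 had peaks in both lists, among them KRT7 and KRT19, and EPCAM and CFTR had none. Among the markers of other cells, 1 of 4 hepatocyte genes had a peak in the sh-NAT10 list and 2 of 4 in the sh-NC list, and 1 of 4 fibroblast and 1 of 4 immune genes had a peak in each list.

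Mitochondrial ribosomes sit in the mitochondrial matrix and make the few proteins that the mitochondrial genome encodes, all of them membrane subunits of the respiratory chain and ATP synthase. Their ribosomal RNAs come from mitochondrial DNA, whereas every ribosomal protein is encoded in the nucleus, translated in the cytosol and imported. Some of these proteins descend from bacterial ribosomal proteins and others exist only in mitochondria, and their amounts must match across subunits and against RNA made in another compartment.

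The genes are spread over most chromosomes, and their starts were searched for motifs. RefSeq promoter windows of GRCh38.p14, 250 bases before to 50 bases after the first listed start, matched 69 of the 77 genes by gene ID. The letters CCGGAAG, the core that ETS family factors bind, stood on either strand in 29 of these 69 windows (42.0%), against 14.2% of the windows of 15842 protein-coding genes. The letters AAGATGGCG, a YY1 motif, stood on either strand in 13 (18.8%), against 2.74% of all. Cytosolic ribosomal protein genes, with 65 windows, held the ETS letters in 32.3% and the YY1 letters in 7.69%. Among the mitochondrial genes at least 1 of these motifs was present in 38 windows (55.1%), against 16.3% of all, and both in 4. The palindromic NRF1 motif of 10 letters was in 1 window (1.45%, against 1.75%), and GGGCGG, a GC box, in 42 (60.9%, against 58.5%). All motifs were searched on both strands as exact letters, so sites that differ in any letter, NRF1 sites included, were not counted. Matches of different motifs may share bases. A match describes letters and is no evidence of binding. The examples, 2 genes per subunit, show how the ETS letters sit in the 250 bases before the start, in capitals and on the coding strand. MRPL38 (chr17:75904885-75905134, minus strand) and MRPS34 (chr16:1773135-1773384, minus strand) had peaks in both lists, MRPL3 (chr3:131502972-131503221, minus strand) only in the sh-NAT10 list and MRPS23 (chr17:57850045-57850294, minus strand) only in the sh-NC list. MRPS34 holds the letters 3 times.
MRPL38: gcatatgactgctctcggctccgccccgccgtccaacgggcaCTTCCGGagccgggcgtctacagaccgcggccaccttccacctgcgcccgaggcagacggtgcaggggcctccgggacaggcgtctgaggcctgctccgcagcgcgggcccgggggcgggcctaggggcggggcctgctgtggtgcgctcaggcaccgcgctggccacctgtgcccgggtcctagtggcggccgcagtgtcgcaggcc
MRPS34: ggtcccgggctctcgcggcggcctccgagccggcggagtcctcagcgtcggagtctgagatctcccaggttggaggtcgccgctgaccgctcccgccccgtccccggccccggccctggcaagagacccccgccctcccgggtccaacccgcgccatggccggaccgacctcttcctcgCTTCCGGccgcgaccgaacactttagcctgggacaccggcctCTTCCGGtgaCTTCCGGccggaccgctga
MRPL3: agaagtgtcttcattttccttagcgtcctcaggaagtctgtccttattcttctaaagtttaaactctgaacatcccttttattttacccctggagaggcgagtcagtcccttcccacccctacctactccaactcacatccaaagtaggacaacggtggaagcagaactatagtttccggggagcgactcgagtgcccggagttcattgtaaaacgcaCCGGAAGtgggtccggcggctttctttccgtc
MRPS23: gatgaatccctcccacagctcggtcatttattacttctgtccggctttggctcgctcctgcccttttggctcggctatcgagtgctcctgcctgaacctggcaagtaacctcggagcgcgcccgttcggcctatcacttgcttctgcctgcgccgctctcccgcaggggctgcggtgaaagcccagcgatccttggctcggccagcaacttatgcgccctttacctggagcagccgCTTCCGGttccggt

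In 10 of the 13 genes with the YY1 letters, these fell in the first 50 transcribed bases (76.9%, against 69.8% of all genes with the letters). Among the 13, 6 also had an ac4C peak, and 30 bases around the letters, in capitals, are shown for those 6 genes. Beyond the letters searched for, the stretches share only the g that follows them. The stretches lie at chr17:75904859-75904888 (minus strand) for MRPL38, chr12:93467512-93467541 (plus) for MRPL42, chr6:42217833-42217862 (minus) for MRPS10, chr6:43687763-43687792 (minus) for MRPS18A, chr6:30617853-30617882 (plus) for MRPS18B and chr7:43869479-43869508 (minus) for MRPS24.
MRPL38: ggccggagggAAGATGGCGgcgccctggtg
MRPL42: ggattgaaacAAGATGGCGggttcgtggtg
MRPS10: cgggaccggcAAGATGGCGgcgcggacagc
MRPS18A: taggtttttgAAGATGGCGgccctcaaggc
MRPS18B: ggcgtacgtcAAGATGGCGgcgtctgtatt
MRPS24: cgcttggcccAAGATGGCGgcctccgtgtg

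The start motifs stood in genes with peaks and in genes without them. ETS letters were in 15 of 37 windows of genes with any peak (40.5%) and in 14 of 32 windows of genes with none (43.8%), and YY1 letters in 16.2% and 21.9%. Peaks themselves seldom reached the promoter window. In the sh-NAT10 list 2 of 69 windows touched a peak (2.90%, against 3.96% of all windows) and in the sh-NC list 3 of 69 (4.35%, against 4.87%). The genes were MRPL38 and MRPS25 in both lists and MRPS24 in the sh-NC list, and each of these peaks was over 7 kb wide with a listed score of 0.

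Peaks were assigned by overlap with the gene span of at least 1 bp, on either strand. A peak was present on 31 of the 77 genes in the sh-NAT10 list (40.3%, 95% Wilson interval 30.02 to 51.4%), where 42.0% of all protein-coding genes had one. In the sh-NC list 28 of the 77 had a peak (36.4%, 26.5 to 47.5%), where 47.1% of all genes had one. Intervals cover counting error only. Peaks in both lists were found on 18 genes, in the sh-NAT10 list only on 13, in the sh-NC list only on 10 and in neither on 36. The sh-NAT10 list, with 81.6% as many peaks in all, thus touched 3 more of these genes than the sh-NC list did, while the number of peaks on them was lower, 56 against 67. That order turned when the sh-NC peaks of lowest score were left out. Leaving them out changes both list length and score, and which of these matters was not tested. With the sh-NC list shortened by score to the length of the sh-NAT10 list, the numbers were 56 and 45. MRPL genes then had 34 and 24 and MRPS genes 22 and 21. Over all protein-coding genes, with a peak counted once per gene it touches, the full lists gave 26532 and 32483. With the shortened sh-NC list they gave 26532 and 26279.

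Large and small subunit genes were then set side by side. Of the 49 MRPL genes, 19 had a peak in the sh-NAT10 list (38.8%, 26.4 to 52.8%) and 16 in the sh-NC list (32.7%, 21.2 to 46.6%). Of the 28 MRPS genes, 12 had a peak in each list (42.9%, 26.5 to 60.9%), not all of them the same genes. The intervals of the subunits overlap in both lists. MRPL genes carried 34 peaks in the sh-NAT10 list and 36 in the sh-NC list, and MRPS genes 22 and 31. The lower sh-NAT10 peak number therefore lay mostly on MRPS genes, and MRPS25 alone, with 1 peak against 7, accounts for 6 of the 9. Counting only peaks that touch no other gene removes the difference, with 31 peaks in each list on MRPL genes and 11 in each on MRPS genes. Over all protein-coding genes a difference stayed at that setting, with 20170 sh-NAT10 and 24458 sh-NC peaks. Counted by the structure of the ribosome, where the products of MRPS18A and MRPS30 belong to the large subunit, 20 of 51 large and 11 of 26 small subunit genes had an sh-NAT10 peak, and 16 and 12 an sh-NC peak.

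**Figure D1:**
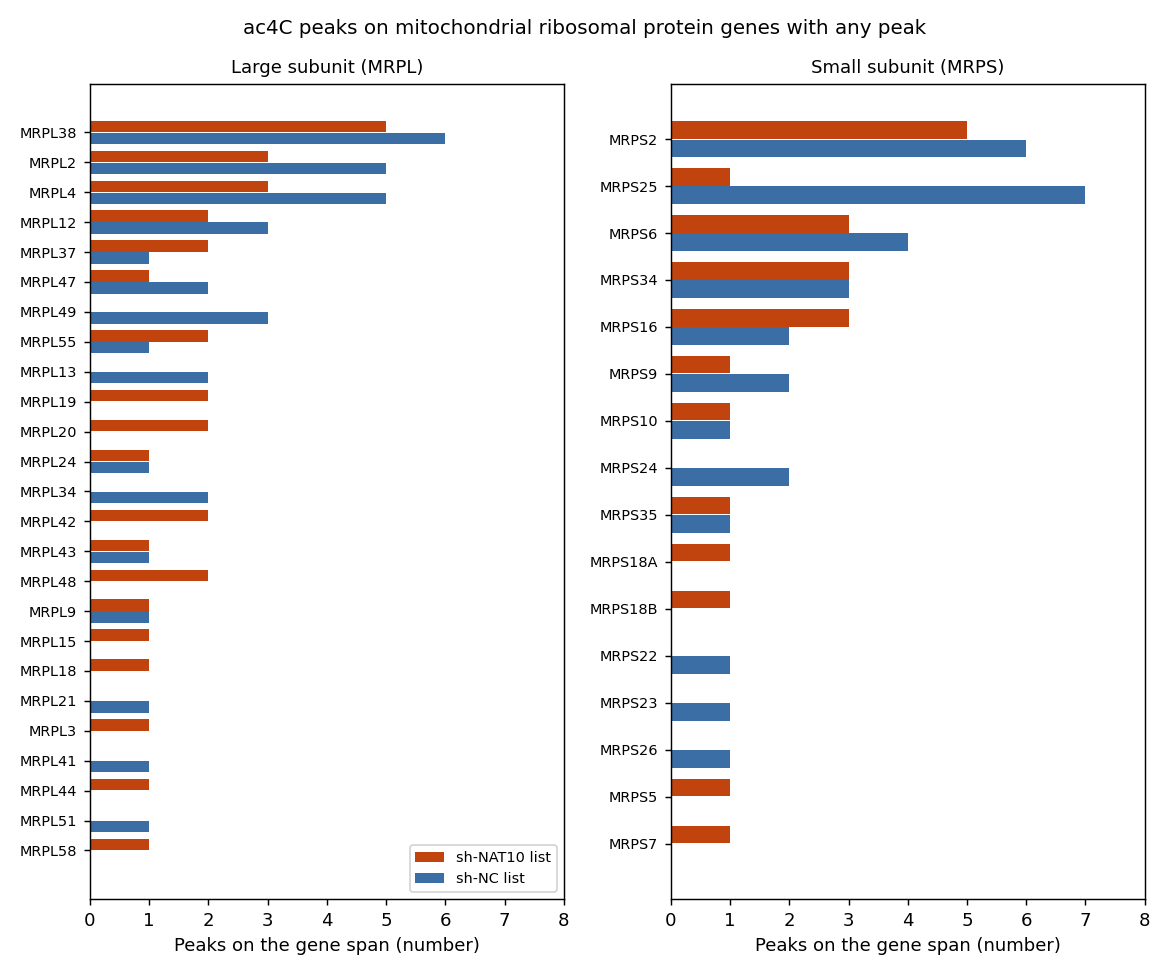
Number of peaks on the gene span for the 25 MRPL and 16 MRPS genes with any peak, sh-NAT10 list above sh-NC list for each gene. MRPL38 and MRPS2 have 5 peaks in the sh-NAT10 list and 6 in the sh-NC list, and MRPS25 has 1 and 7.

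Genes with a peak in 1 list only were examined next. Of the 31 genes with an sh-NAT10 peak, 13 had none in the sh-NC list (41.9%, 26.4 to 59.2%), where the share over all protein-coding genes was 17.4%. Of the 28 with an sh-NC peak, 10 had none in the sh-NAT10 list (35.7%, 20.7 to 54.2%), against 26.3% over all genes. For MRPL genes these shares were 9 of 19 (47.4%) and 6 of 16 (37.5%), and for MRPS genes 4 of 12 in each direction (33.3%). More sh-NAT10 than sh-NC peaks were found on 16 of the 41 genes with any peak (39.0%, against 33.3% of all genes) and more sh-NC peaks on 19 (46.3%, against 46.1%). With the shortened sh-NC list this order turned, with more sh-NAT10 peaks on 21 genes and more sh-NC peaks on 12. Over all protein-coding genes it turned as well, with 4686 and 3853.

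Over all protein-coding genes these shares fell as the number of peaks on a gene rose, so they were also taken by peak number. The mitochondrial ribosomal protein genes mostly had few peaks. Whether peak number accounts for their shares was not tested. Among those genes with exactly 1 sh-NAT10 peak, 9 of 17 had no sh-NC peak (52.9%, 31.0 to 73.8%), against 31.8% of all protein-coding genes with 1 peak. With 2 sh-NAT10 peaks it was 4 of 7 (57.1%, 25.0 to 84.2%), against 18.7%. With 3 or more it was 0 of 7 (upper 95% bound 35.4%), against 4.12%. In the other direction, 6 of 13 genes with 1 sh-NC peak lacked an sh-NAT10 peak (46.2%, 23.2 to 70.9%, against 43.1%). With 2 sh-NC peaks it was 3 of 6 (50%, 18.8 to 81.2%, against 25.5%). With 3 or more it was 1 of 9 (11.1%, 1.99 to 43.5%, against 13.5%), that gene being MRPL49. No replicate shows how often a gene with 1 or 2 peaks would be called again in the same arm.

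**Figure D2:**
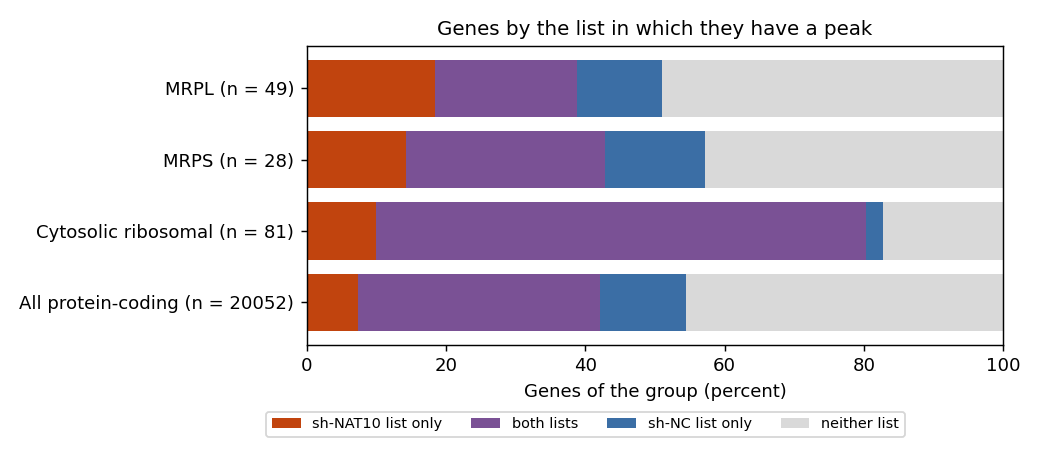
Percent of genes with a peak in the sh-NAT10 list only, in both lists, in the sh-NC list only and in neither, for MRPL, MRPS, cytosolic ribosomal protein and all protein-coding genes. Both lists share 57 of 81 cytosolic genes, against 10 of 49 MRPL and 8 of 28 MRPS genes.

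Gene spans were short. The median span was 8618 bp for the 77 genes and 24097.5 bp for all protein-coding genes. Among genes of up to 5 kb, 31.8% of the 22 members had a peak in the sh-NAT10 list and 45.5% in the sh-NC list, against 19.8% and 23.2% of all genes of that size. Among those of 5 to 10 kb the shares were 47.4% and 31.6% of 19, against 29.1% and 31.5%, and from 10 to 20 kb 33.3% in each list of 18, against 36.1% and 38.1%. From 20 to 50 kb they were 54.5% and 36.4% of 11, against 45.5% and 49.5%, and above 50 kb 42.9% and 28.6% of 7, against 59.1% and 68.6%. Over all genes the share was higher in each longer class, and over the members it had no such order, for which the intervals are wide.

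**Figure D3:**
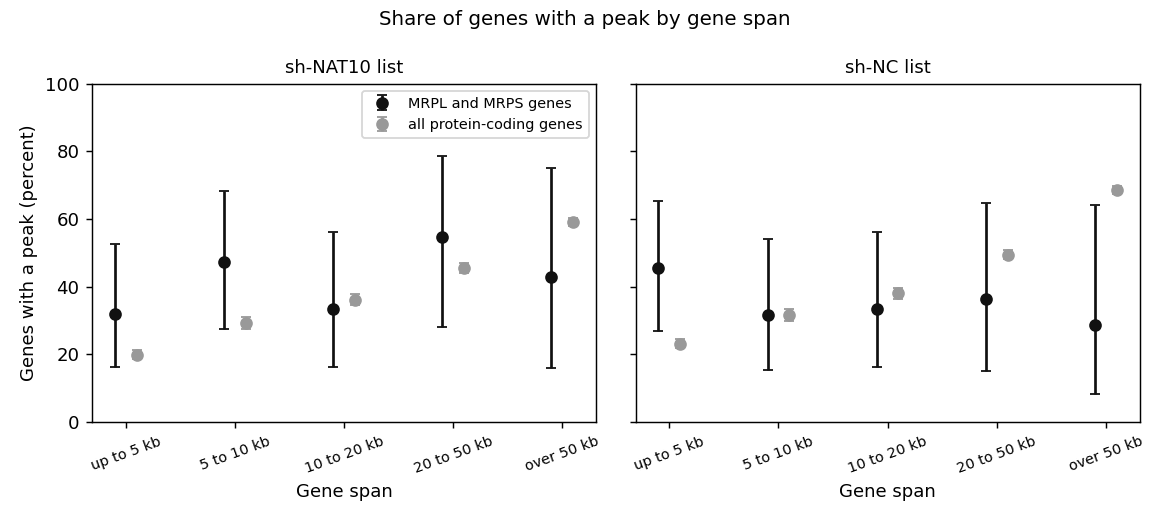
Percent of genes with a peak by gene span (kb), sh-NAT10 list left and sh-NC list right, for the 77 genes (black) and all protein-coding genes (grey), with 95% Wilson intervals. The black intervals overlap across all 5 span classes, while the grey shares rise from 19.8% to 59.1% in the sh-NAT10 list and from 23.2% to 68.6% in the sh-NC list.

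Most peaks on these genes were narrow, as were those on all genes. Widths of up to 1000 bp were found for 73.2% of the sh-NAT10 and 77.6% of the sh-NC peaks, against 68.8% and 70.7% of the peaks on all protein-coding genes. The score is the authors' own, on an unstated scale. It was used to rank peaks within a list. The same cuts, 20 for peaks and 15 for naming genes, were also applied to both lists. Whether an equal score means the same in both lists is unknown. Its median was 11.9 on the 56 sh-NAT10 peaks and 11.5 on the 67 sh-NC peaks, against 12.4 and 12.2 over the whole lists. Scores of 20 or more were listed for 9 and 10 peaks (16.1% and 14.9%, against 14.7% and 11.7% on all protein-coding genes). Scores below 10, where the lists thin out sharply, were listed for 4 and 11. Over all protein-coding genes such scores stood on 1057 of 25027 sh-NAT10 and 1262 of 30411 sh-NC peaks. Of the 11 sh-NC peaks, 8 were among the 31 on MRPS genes. The median width of the 56 and 67 peaks was 122 and 150 bp. A peak is written as 1 block, so a wide peak can span introns. More than 1 gene was touched by 14 of the 56 sh-NAT10 peaks (25%) and 25 of the 67 sh-NC peaks (37.3%), against 19.4% and 19.6% of the peaks on all protein-coding genes. Of these, 11 and 20 lay on MRPS genes. Counting only peaks that touch no other gene left 42 in each list, against 20170 and 24458 on all protein-coding genes.

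Where a strand is listed, 46 of 52 sh-NAT10 peaks and 46 of 59 sh-NC peaks lay on the strand of the gene. Opposite-strand peaks fell on 5 genes in the sh-NAT10 list and 8 in the sh-NC list, and MRPL38, MRPL4, MRPS2 and MRPS34 were among them in both. The sources used here do not say whether reads kept their strand, so the transcript behind such peaks is uncertain.

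Of the sh-NAT10 peaks 32 of 56 overlapped an sh-NC peak on the same strand (57.1%, 44.1 to 69.2%), against 54.9% of the peaks on all protein-coding genes. Of the sh-NC peaks 33 of 67 overlapped an sh-NAT10 peak (49.3%, 37.7 to 60.9%), against 45.3%. The start and end were the same to the base in 13 peaks, 3 each on MRPL38 and MRPS2 and 1 each on MRPL12, MRPL2, MRPL4, MRPS25, MRPS34, MRPS35 and MRPS6. These were 23.2% of the sh-NAT10 and 19.4% of the sh-NC peaks, against 18.6% and 15.3% on all protein-coding genes.

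Among the conserved large subunit proteins, MRPL12 builds the flexible stalk that contacts translation factors. It carried peaks of score 15.5 and 32.7 in the sh-NAT10 list and of 10.7, 13.6 and 18.4 in the sh-NC list. The peak chr17:81704285-81704636 had the same ends in both lists, and the 3′ peaks, which hold the top score of the gene in each list, share their right end. An additional sh-NC peak of 693 bp near the 5′ end had no sh-NAT10 counterpart.

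MRPL2, next to the peptidyl transferase centre, had 3 sh-NAT10 and 5 sh-NC peaks. The top score in each list, 26.9 in the sh-NAT10 list and 51.3 in the sh-NC list, belongs to a plus-strand peak of 15542 bp with the same ends, which also spans CUL7. The minus-strand peaks that touch no other gene scored 10.3 and 11.1 in the sh-NAT10 list and 10.0, 11.6, 10.3 and 12.8 in the sh-NC list. MRPL4, a protein of the exit tunnel, likewise had 3 and 5 peaks. Its own-strand peaks scored 11.0 and 10.7 in the sh-NAT10 list and 11.5, 12.4 and 10.2 in the sh-NC list. The sh-NC peak of 11.5 lies near the 5′ end, where the sh-NAT10 list has no peak on that strand. On the opposite strand a 7409 bp peak scored 0.665 in the sh-NAT10 list and 0.590 in the sh-NC list, which has a further peak of 75 bp and score 11.1.

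MRPL3, which lies near the peptidyl transferase centre, had a single peak of 1280 bp and score 36.6 in the sh-NAT10 list and none in the sh-NC list. It is the highest score among genes present in the sh-NAT10 list only. The opposite case among conserved proteins was MRPL21, with 1 peak of 403 bp (chr11:68892926-68893328) and score 25.8 in the sh-NC list and none in the sh-NAT10 list. MRPL13 had 2 sh-NC peaks of score 52.3 and 33.0 and no sh-NAT10 peak. Only 11 bp of its 14287 bp top peak lie inside the gene, whereas the 6738 bp peak lies wholly inside.

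MRPL55, the counterpart of bacterial L31, and MRPL9 had peaks in both lists that differed in width or strand. MRPL55 had narrow sh-NAT10 peaks of 100 and 75 bp with scores of 11.3 and 11.1, against 1 sh-NC peak of 873 bp and score 24.5. On MRPL9 the 1 sh-NAT10 peak, of score 12.8, lies on the opposite strand where OAZ3 overlaps, and the 1 sh-NC peak, of 266 bp and score 22.5, lies on the strand of MRPL9. The gene counts as having a peak in both lists, yet on its own strand only the sh-NC list has one.

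Among large subunit proteins without a bacterial counterpart, MRPL38 and MRPL48 belong to the central protuberance. MRPL38 had the most peaks of any MRPL gene, 5 in the sh-NAT10 list and 6 in the sh-NC list. On its own strand, besides a 7260 bp peak listed at 0 in both, the scores were 10.9 and 11.5 in the sh-NAT10 list and 10.3, 16.9 and 15.1 in the sh-NC list. Its top scores, 20.5 and 21.4, stand on the opposite strand in a 466 bp peak (chr17:75899364-75899829) with the same ends in both lists. A second opposite-strand peak, of 1254 bp and also with the same ends, scored 15.3 and 14.99. MRPL48 was in the sh-NAT10 list only, with peaks of 1367 bp at score 14.8 and of 3303 bp at score 30.1, both toward the 5′ end of a 77260 bp span.

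MRPL58, a peptidyl-tRNA hydrolase that rescues stalled mitochondrial ribosomes, had 1 sh-NAT10 peak of 50 bp and score 13.4 and no sh-NC peak. MRPL49 showed the reverse, with no sh-NAT10 peak and 3 sh-NC peaks. Of these, 1 is a 7581 bp peak over SYVN1 listed at 0, and the other two, on the strand of MRPL49, scored 10.7 and 13.5.

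In the small subunit MRPS2, the homologue of bacterial S2, had 5 sh-NAT10 and 6 sh-NC peaks. Own-strand scores were 12.8, 21.0, 18.3 and 11.1 in the sh-NAT10 list and 11.7, 12.8, 10.9 and 16.1 in the sh-NC list, in the same order along the gene. Each of these 4 sh-NAT10 peaks overlaps its sh-NC counterpart. In each list all of them but the first also overlap the uncharacterised gene LOC101928525. The highest score on any of the 77 genes in either list, 71.4 in the sh-NAT10 list and 57.9 in the sh-NC list, is a 559 bp peak on the opposite strand of MRPS2 (chr9:135503698-135504256) where LOC101928525 overlaps too. The remaining sh-NC peak, also on the opposite strand and over LOC101928525, has 50 bp and a score of 10.9.

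MRPS25 had the widest gap in number, 1 sh-NAT10 peak against 7 sh-NC peaks. The shared peak is 10622 bp wide, listed at 0 and also over RBSN. Of the other sh-NC peaks, 5 lie at the 3′ end where NR2C2 overlaps, 3 of them on the opposite strand with scores of 15.6, 11.0 and 11.1 and 2 on the strand of the gene with scores of 1.35 and 0.981. The sh-NC peak that touches no other gene scored 1.11. MRPS5, near the messenger entrance, had 1 sh-NAT10 peak of 50 bp and score 14.1, and MRPS18B, of the S18 family, had 1 of 75 bp and score 22.3, with no sh-NC peak on either gene. MRPS23, a mitochondrial protein without a bacterial counterpart, had 1 sh-NC peak of 7705 bp and score 25.3 and no sh-NAT10 peak.

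**Figure D4:**
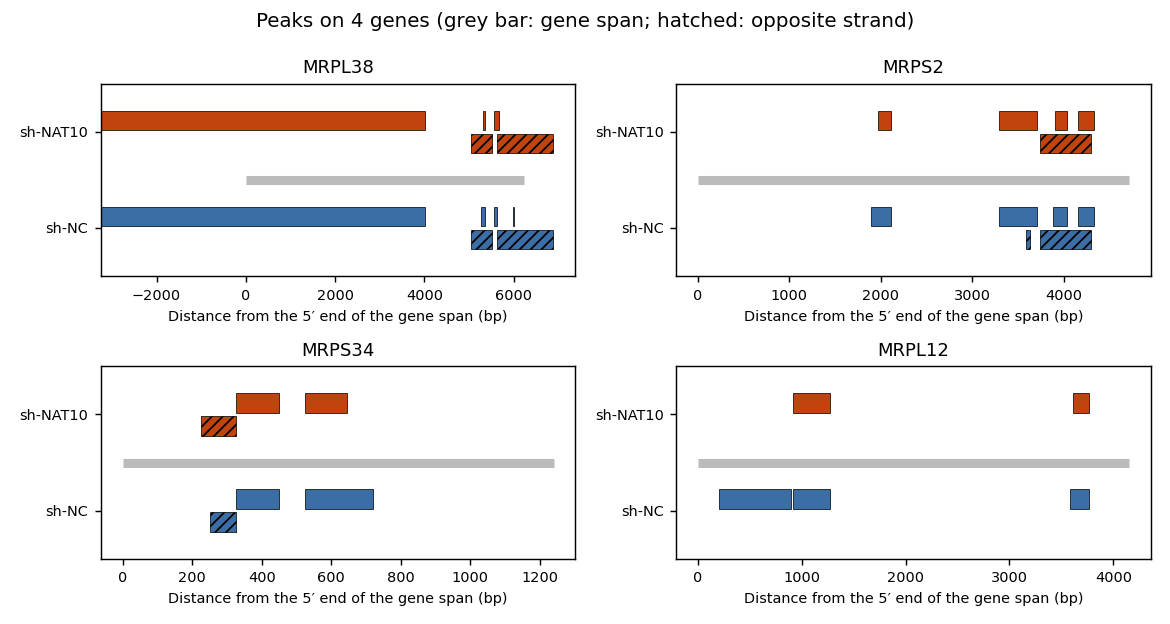
Peaks on MRPL38, MRPS2, MRPS34 and MRPL12 by distance in bp from the 5′ end of the gene span (grey bar), sh-NAT10 above and sh-NC below, with peaks on the opposite strand hatched. Most peaks stand at the same place in both rows, and the 693 bp peak near the 5′ end of MRPL12 is present in the sh-NC row only.

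MRPS34, a small subunit protein with no bacterial counterpart, had 3 peaks in each list on the shortest span of any MRPS gene, 1240 bp. Its own-strand peaks scored 12.8 and 11.9 in the sh-NAT10 list and 12.5 and 14.5 in the sh-NC list, and the third lies on the opposite strand with EME2. MRPS9 had 1 sh-NAT10 peak of 22145 bp and score 50.1. An sh-NC peak of 158 bp and score 17.2 ends at the same base, and a further sh-NC peak, of score 31.3, lies on the opposite strand. All 3 sh-NAT10 and both sh-NC peaks of MRPS16 overlap the antisense gene DNAJC9-AS1, and all but 1 of the 7 peaks of MRPS6 over both lists overlap SLC5A3.

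The remaining genes carried few and low peaks. MRPL24, MRPL43, MRPS10 and MRPS35 had 1 peak in each list, MRPL37 had 2 sh-NAT10 and 1 sh-NC peak, and MRPL47 had 1 and 2. In the sh-NAT10 list only, MRPL19, MRPL20 and MRPL42 had 2 peaks and MRPL15, MRPL18, MRPL44, MRPS7 and MRPS18A had 1, all with scores below 15. In the sh-NC list only, MRPL34 had 2 peaks, both over ABHD8, MRPS24 had 2, both over the readthrough gene URGCP-MRPS24, and MRPL41, MRPL51, MRPS22 and MRPS26 had 1 each. Genes with no peak in either list were MRPL1, MRPL10, MRPL11, MRPL14, MRPL16, MRPL17, MRPL22, MRPL23, MRPL27, MRPL28, MRPL30, MRPL32, MRPL33, MRPL35, MRPL36, MRPL39, MRPL40, MRPL45, MRPL46, MRPL50, MRPL52, MRPL53, MRPL54 and MRPL57 in the large subunit. In the small subunit they were MRPS11, MRPS12, MRPS14, MRPS15, MRPS17, MRPS18C, MRPS21, MRPS27, MRPS28, MRPS30, MRPS31 and MRPS33.

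Conserved and mitochondrion-specific proteins were also counted apart, with classes written from textbook knowledge after the peak counts had been seen. Of 47 genes for proteins with a bacterial homologue, 21 had an sh-NAT10 peak (44.7%) and 16 an sh-NC peak, 9 in the sh-NAT10 list only and 4 in the sh-NC list only. Of 30 mitochondrion-specific genes, 10 had an sh-NAT10 peak (33.3%) and 12 an sh-NC peak, 4 and 6 of them in that list only. Intervals of the classes overlap in each list and hold the shares over all protein-coding genes, 42.0% and 47.1%. Of the conserved genes with a peak, 42.9% were in the sh-NAT10 list only and 25% in the sh-NC list only. For the mitochondrion-specific genes these shares were 40% and 50%, and over all protein-coding genes 17.4% and 26.3%.

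The place of the peaks along the gene was described for each subunit. Genes with no listed strand could not be placed, which leaves 42 of 49 MRPL and 27 of 28 MRPS genes. Peaks of MRPL2, MRPL15 and MRPL21 are thus left out, so the subunits are not covered alike. Over peaks of up to 1000 bp on the strand of the gene, the centre stood at a median of 75.0% of the span in the sh-NAT10 list (17 peaks) and 67.7% in the sh-NC list (18) for MRPL genes, and at 43.3% (17) and 50.9% (20) for MRPS genes. Medians over all protein-coding genes were 69.9% and 76.0%, and over cytosolic ribosomal protein genes 48.6% and 49.5%. The last 20% of the span held 8 of 17 sh-NAT10 and 6 of 18 sh-NC peaks of MRPL genes, against 2 of 17 and 4 of 20 of MRPS genes. For both subunits together it held 29.4% and 26.3%, against 38.7% and 45.3% over all protein-coding genes. Several peaks share a gene and both lists share sites, so the points are not independent, and position along a span is not position along the messenger.

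**Figure D5:**
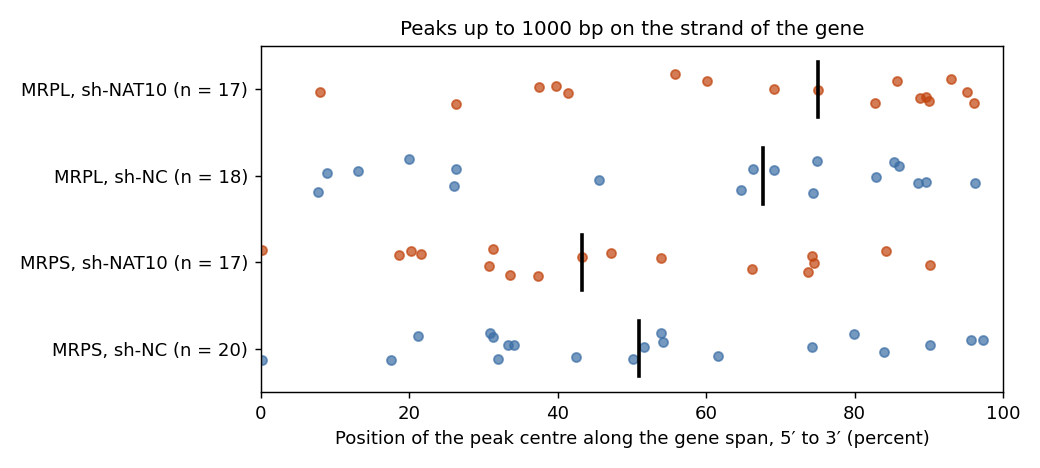
Position of the centre of each peak of up to 1000 bp on the strand of the gene, in percent of the gene span from 5′ to 3′, sh-NAT10 above sh-NC for MRPL and for MRPS genes. Points are spread vertically for legibility and the bars mark medians of 75.0% and 67.7% for MRPL and of 43.3% and 50.9% for MRPS.

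Cytosolic ribosomal protein genes, which encode the ribosome that translates these same messengers, were counted for comparison. Of 81 such genes 65 had an sh-NAT10 peak (80.2%) and 59 an sh-NC peak (72.8%), on a median span of 5015 bp. In the sh-NAT10 list only were 8 of 65 (12.3%), and in the sh-NC list only 2 of 59 (3.39%). Of their sh-NAT10 peaks 79.5% overlapped an sh-NC peak, and of their sh-NC peaks 91.4% overlapped an sh-NAT10 peak. Near-identical copies of cytosolic ribosomal genes make the assignment of their reads uncertain, and transcript abundance, which the lists do not give, was not tested.

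The other parts of the mitochondrial translation system were counted from lists of known genes. Of 5 ribosome subunits without an MRP symbol, 4 had an sh-NAT10 peak and 3 an sh-NC peak, with 9 peaks against 4. OXA1L, the membrane insertase that docks on the ribosome, had 7 and 3. DAP3, a GTP-binding small subunit protein, had 3 and 0, AURKAIP1 3 and 2, PTCD3 2 and 1, GADD45GIP1 1 and 1, and CHCHD1 none. Of 12 mitochondrial translation factors, 8 had an sh-NAT10 peak (66.7%, against 42.0% over all genes) and 5 an sh-NC peak (41.7%, against 47.1%). The elongation factor genes GFM1 and TUFM had 4 and 2 sh-NAT10 peaks, against 2 and 3 sh-NC peaks. GUF1, TSFM and MTRFR had 1 sh-NAT10 peak each and none in the sh-NC list. In the sh-NAT10 list only were thus 3 of 8 factors (37.5%, against 17.4% over all genes). In the sh-NC list only were 0 of 5, against 26.3%. Of 26 assembly and rRNA modification genes, 17 had an sh-NAT10 peak (65.4%, against 42.0%) and 16 an sh-NC peak (61.5%, against 47.1%). Peaks in both lists were found on 11 of the 26. In 1 list only were 6 of the 17 (35.3%, 17.3 to 58.7%, against 17.4%) and 5 of the 16 (31.3%, 14.2 to 55.6%, against 26.3%). Among the assembly genes ERAL1, a GTPase that chaperones small subunit RNA, had 2 sh-NAT10 and 3 sh-NC peaks. MTG2, a GTPase of large subunit assembly, had 3 and 2.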

How the data were processed

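IP and input libraries of sh-NAT10 and sh-NC RBE cells were sequenced. The submitters' processing notes name fastp (0.20.1), Bowtie2 (2.4.1) and hg38. The sources used here do not name the peak caller or its threshold, or say whether input was used and replicates pooled. The authors deposited 1 interval list per arm, in which each peak has a score of unstated scale. The name of the sh-NC list fits only the control titles; the other list was taken as sh-NAT10. With depth unknown, intervals rest on counts of genes and peaks.

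The 77 members and all lists were chosen with earlier results of these data known. Peaks were counted on RefSeq gene spans (GRCh38.p14) with at least 1 bp of overlap, on either strand. The reference used here has no exons. Lists were compared peak by peak on the same strand. No test was run between arms; shares have 95% Wilson intervals. Python 3.11.15, NumPy 2.4.6, pandas 2.3.3, SciPy 1.17.1 and matplotlib 3.10.9 were used, and the overlap counting was tested on simulated data. Values are given in full for genes in 1 list only with a score of 15 or more, the 5 with most peaks, those differing by 3 or more peaks, and the 5 with the highest score of a peak up to 1000 bp touching no other gene in each list; MRPS34, MRPS9, MRPS16 and MRPS6 lie outside this rule and were chosen after their values were seen. In all, 2 symbols of the assembly list had no match, since they are older names. Alternatives covered overlap, width, other genes, score, strand, merging and list length.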

Additional observations from a re-analysis of the deposited data

How the results depend on the processing

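Counts of genes with a peak and of genes in 1 list only stayed within 1.5 times the reported values when at least 50% of a peak had to lie in the gene, when peaks were limited to 1000 bp, to the strand of the gene or to no other gene, when touching peaks were merged, and when the sh-NC list was shortened to the length of the sh-NAT10 list by score. With scores of 20 or more, 8 genes had an sh-NAT10 peak and 9 an sh-NC peak, 4 and 5 of them in that list only, with 9 and 10 peaks. The 1-list shares at that score were 50% and 55.6%, against 47.7% and 47.2% of all protein-coding genes. With peaks that touch no other gene, the sh-NC peaks numbered 42 instead of 67, and over all protein-coding genes 24458 instead of 30411. Requiring 50% of each peak to overlap lowered the shared portion to 42.9% of sh-NAT10 and 35.8% of sh-NC peaks, against 38.8% and 31.9% on all protein-coding genes. The first 2 settings keep fewer peaks and the last has a stricter definition of overlap; no further cause was tested. Of the other alternative values, 45 stayed within 1.5 times, or for shares within the interval of the reported value. With the shortened sh-NC list, 31 genes had an sh-NAT10 peak and 25 an sh-NC peak, 15 and 9 of them in that list only. The 1-list shares at that setting were 48.4% and 36%, against 24.2% and 24.1% of all protein-coding genes. Peaks then numbered 56 and 45, which turns the order of the peak numbers. No paired analysis was possible because the lists do not separate the replicates, and leaving out replicates was not run for the same reason. Exons were not used, since the annotation here gives gene spans. Depth behind the lists is unknown, so a missing peak is no measured absence. Peak numbers in the shortened list, counting own-strand peaks that touch no other gene, and assigning subunits by structure, were chosen after seeing the data.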

Other observations

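Genes with an MRP symbol that code for no protein were counted in the same way. Of 103 pseudogenes, 7 had a peak in the sh-NAT10 list and 14 in the sh-NC list, 4 of them in both. The shares, 6.80% and 13.6%, stand beside 16.6% and 19.5% of all 15614 pseudogenes. Of the 17 with any peak, 8 were crossed only by peaks at least 27020 bp wide, and 11 had no peak that touched that gene alone. MRPS31P2 had the most, with 1 sh-NAT10 and 3 sh-NC peaks. Of 3 transcribed pseudogenes, MRPS31P5 had 1 sh-NAT10 peak, and of 7 long non-coding RNA genes, MRPS9-AS2 had 1 sh-NC peak. Reads from a processed pseudogene and its parent gene can be hard to tell apart, and the sources used here do not say how such reads were placed.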
